A study of Mus musculus with 6 samples.

Results

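The right atrium (RA) is built from cardiac isoforms of the contractile and calcium-handling proteins, and the 10 genes described here encode isoforms that are best known from skeletal muscle: the troponins Tnnt1, Tnnt3, Tnni2 and Tnnc2, the regulatory light chain Mylpf, the myosin heavy chains Myh2 and Myh4, the calcium pump Atp2a1, the Z-disc protein Actn3 and the calcium store protein Casq1. They were chosen by symbol, and each symbol had 1 row among the 54093 genes of the table. RNA-seq was read in RAs of wild-type C57BL/6 mice, male or female, at P21. The sham group had sham surgery at P7. The volume overload (VO) group had an aortocaval fistula made at P7 by a needle puncture between the abdominal aorta and the inferior vena cava, which sends arterial blood back to the right heart. Each group held 3 libraries, named here sham 1 to sham 3 and VO 1 to VO 3. The sources do not say whether a library came from 1 animal or from several, so p-values measure the spread between these libraries, which may be in part technical.

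A striated muscle contracts when calcium leaves the sarcoplasmic reticulum, binds troponin C and, through troponins I and T, frees the actin filament for myosin. Most parts of this machine come as paralogs, each used mainly in heart, in slow or in fast skeletal fibres. The developing heart carries some skeletal paralogs, such as slow troponin I, that later give way to cardiac ones.

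Of the 10 genes, 4 had a mean of at least 1 FPKM over the 6 libraries, the level taken here as expressed: Casq1, Tnnt1, Atp2a1 and Tnni2. FPKM divides the fragments of a gene by its length and by a factor of the library, so levels can be compared between genes. That factor did not follow the fragments on genes. VO 1 had 16852482 of them and 18.1 per FPKM and kilobase, against 16494342 and 15.6 in sham 1. Casq1, Tnnt1 and Atp2a1 were at 1 FPKM or more in all 6 libraries, and Tnni2 was so in 4, the 3 sham libraries and VO 2. Actn3 passed 1 FPKM in 2 sham libraries. Tnnt3 and Mylpf were below 1 FPKM in every library and had 98 and 39 fragments in total. Myh2 had 22 fragments, Myh4 2 and Tnnc2 1 in all 6 libraries together. These 3 genes, like Tnnt3 and Mylpf, reached 1 FPKM in no library and counted as absent at that level. Tnnt3 and Mylpf were read at low levels, while Myh2, Myh4 and Tnnc2 gave almost no fragments. The 10 genes summed to 20.2 to 25.5 FPKM in the sham libraries and to 8.21 to 19.8 FPKM in the VO libraries, and Casq1 alone made up 50.4% to 71.6% of that sum.

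Tnnt1 and Actn3 are the members for which the study designed qRT-PCR primers, and the primers are shown because they fix which exons that assay reads. The Tnnt1 pair lies in coding exons 7 and 8 of a transcript with 14 exons (GRCm38, minus strand, chr7:4510319-4510339 and chr7:4509983-4510003), gives a product of 109 bases and is held by 9 transcripts of the gene. The Actn3 forward primer spans the junction of exons 1 and 2 (chr19:4877711-4877724 and chr19:4872650-4872656) and the reverse primer lies in exon 3 of 21 (chr19:4872291-4872313), for a product of 197 bases held by 1 transcript. Neither pair matched transcripts of another gene. No values of that assay are used here. The forward and reverse primers read, 5′ to 3′:
Tnnt1 forward: aaggggagcgtgtggattttg
Tnnt1 reverse: tcctcctttttccgctgttca
Actn3 forward: aacagcagcggaaaaccttca
Actn3 reverse: ggctttattgacattggcgattt

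Promoters are shown for the 3 expressed members with an entry in the RefSeq promoter table (GRCm38.p6), which held 7 of the 10 genes (all but Tnnt3, Tnni2 and Actn3), and for Myh4, a gene with almost no fragments. Capitals mark matches to 4 motifs of muscle promoters, searched on both strands in the 250 bases before the start: the E-box CANNTG, the MCAT element CATTCC, the CArG box and the MEF2 site. Exonic bases were left out of the printed stretches, while motifs were counted in all 250 bases. Tnnt1 held 1 E-box, Atp2a1 held 1 and Casq1 held 2. Myh4 held 2 E-boxes, 1 MCAT element, 1 CArG box and 1 MEF2 site, with no overlap among them. The other members with an entry and low levels differed from Myh4: Myh2 held none of the 4 motifs, Tnnc2 held 2 E-boxes and Mylpf 1 E-box. The Tnnc2 E-box at 183 to 178 bases before the start lies in an exon of Tnnc2 itself. Among 32851 mouse promoters of the same length, 66.2% held an E-box, 12.6% an MCAT element, 1.47% a CArG box and 2.92% a MEF2 site. The printed Tnnt1 stretch lies inside the bounds of the gene as counted (4504570 to 4516382), before a RefSeq start within those bounds. The stretches, written along the strand of the gene, are chr7:4516005-4516225 (minus) for Tnnt1, chr7:126463109-126463323 (minus) for Atp2a1, chr1:172219896-172220145 (minus) for Casq1 and chr11:67237562-67237811 (plus) for Myh4:
Tnnt1: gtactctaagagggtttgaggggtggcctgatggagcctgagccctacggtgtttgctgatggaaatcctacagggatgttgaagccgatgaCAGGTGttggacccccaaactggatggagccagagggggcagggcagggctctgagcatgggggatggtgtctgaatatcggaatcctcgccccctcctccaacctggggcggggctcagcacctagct
Atp2a1: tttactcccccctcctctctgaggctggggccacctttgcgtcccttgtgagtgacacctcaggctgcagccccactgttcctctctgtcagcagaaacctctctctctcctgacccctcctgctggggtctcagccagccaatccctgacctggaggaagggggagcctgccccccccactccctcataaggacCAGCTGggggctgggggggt
Casq1: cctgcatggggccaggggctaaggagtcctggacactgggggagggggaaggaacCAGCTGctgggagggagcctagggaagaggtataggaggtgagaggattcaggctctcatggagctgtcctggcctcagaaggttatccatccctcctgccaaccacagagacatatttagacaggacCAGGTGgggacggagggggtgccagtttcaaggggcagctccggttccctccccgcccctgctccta
Myh4: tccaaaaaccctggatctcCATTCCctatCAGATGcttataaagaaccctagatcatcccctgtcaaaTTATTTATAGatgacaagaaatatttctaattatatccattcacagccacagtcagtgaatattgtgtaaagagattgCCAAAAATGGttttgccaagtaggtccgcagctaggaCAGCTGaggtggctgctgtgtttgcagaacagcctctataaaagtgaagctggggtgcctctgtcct

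The libraries held 15963082 to 17237903 fragments on genes, and for a gene with 1 kilobase of exons 1 FPKM meant 15.6 to 18.1 fragments. All 8 atrial cardiomyocyte markers were above 1 FPKM on average, led by Myl7 with a mean of 5190.4 FPKM, Nppa with 2994, Myh6 with 2449.6, Bmp10 with 1363 and Myl4 with 924 FPKM, with a summed level of 15055 to 20918 FPKM in sham and 7383 to 14280 FPKM in VO, which puts the tissue where its label does. VO 1 had the lowest atrial sum and VO 3 the next. VO 3 also stood apart for brown fat: Ucp1, the uncoupling protein that defines brown adipocytes, was at 253.6 FPKM in VO 3 and at 0 in the other 5 libraries, Cidea was at 65.7 FPKM there and at 3.50 to 7.69 FPKM in the others, and the 4 brown adipocyte markers summed to 321 FPKM there against 4.02 to 8.29 FPKM elsewhere. Of the 7 markers of the skeletal myogenic lineage (Myod1, Myf5, Myf6, Myog, Pax7, Mymk and Mymx), 5 were at 0 in every library and the list summed to at most 0.111 FPKM. In bulk RNA, fewer cells of a type and less RNA per cell cannot be told apart. Some of the results below are also given without VO 1 or VO 3. The part of brown fat and of the lower atrial sum of VO 1 in the results was not tested.

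**Figure D1:**
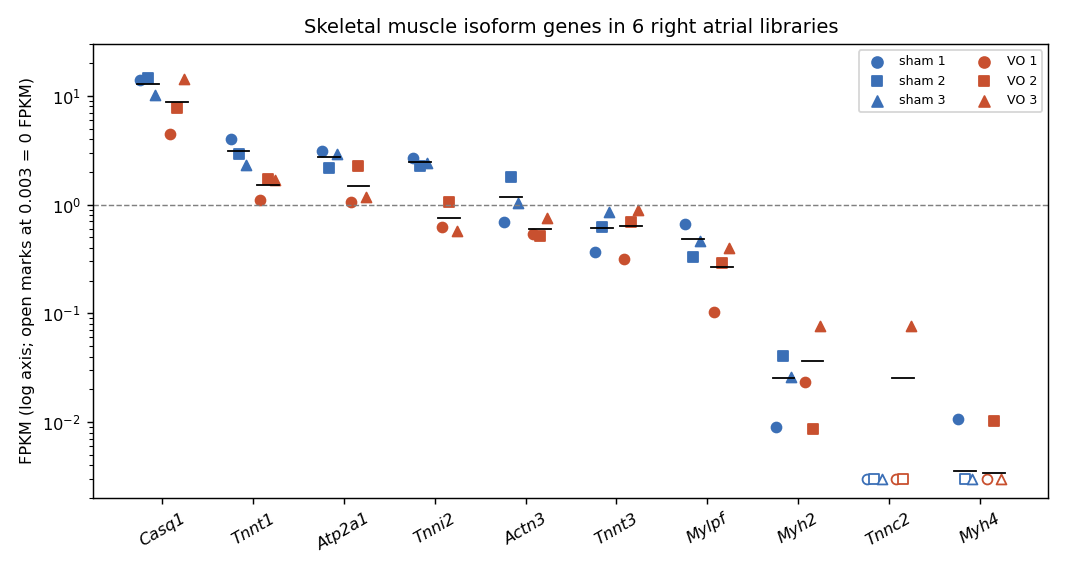
FPKM of the 10 genes (log axis) in each library, sham in blue and VO in red, with circles, squares and triangles for libraries 1, 2 and 3, black bars for group means, open marks for 0 FPKM and a dashed line at 1 FPKM. Casq1 lies between 4.46 and 14.6 FPKM, and Myh2, Tnnc2 and Myh4 lie under 0.1 FPKM in every library.

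The troponin T gene of slow skeletal fibres, Tnnt1 (ENSMUSG00000064179, GRCm38 chromosome 7, 4504570 to 4516382), anchors the troponin complex to tropomyosin. Its level was 4.02, 2.95 and 2.31 FPKM in sham 1 to sham 3 and 1.10, 1.73 and 1.68 FPKM in VO 1 to VO 3. Every VO library was below every sham library. The means were 3.10 ± 0.865 FPKM in sham and 1.503 ± 0.349 FPKM in VO (SD, n = 3 each), from 44 to 138 fragments per library. In the fit across the 12627 genes with a mean of at least 1 FPKM, the log2 fold change of FPKM + 0.1 was -0.99 (standard error 0.26, 95% interval -1.60 to -0.37), with an unadjusted p of 0.00683 and an adjusted p of 0.373 by limma with Benjamini-Hochberg adjustment, which does not pass the threshold of 0.05. With both VO 1 and VO 3 left out, the unadjusted p was 0.0642 in limma's fit, where the lone VO library is assumed to vary like the others. Tnnt1 lies 1922 bases from Tnni3, the abundant cardiac troponin I gene.

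The fast troponin T gene, Tnnt3 (ENSMUSG00000061723, chromosome 7, 142498836 to 142516009), was at 0.365, 0.623 and 0.853 FPKM in the sham libraries and at 0.313, 0.697 and 0.883 FPKM in the VO libraries. The groups covered nearly the same range. The fit with a mean of at least 0.1 FPKM, over 19053 genes, gave a log2 fold change of 0.005 with a standard error of 0.43 and an adjusted p of 0.997 by limma, and its 95% interval from -1.01 to 1.02 still allows a change of either sign. The sign turned with the setting: the value was -0.25 without VO 3 and 0.37 without VO 1.

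Troponin I holds the complex in its blocking state, and Tnni2 is its fast skeletal gene (ENSMUSG00000031097, chromosome 7, 142441808 to 142444410). Tnni2 was at 2.66, 2.25 and 2.42 FPKM in the sham libraries and at 0.626, 1.07 and 0.569 FPKM in the VO libraries. The lowest sham library was above the highest VO library. The spread was small for its mean in sham, while the VO values ran from 0.569 to 1.07 FPKM. The means were 2.44 ± 0.208 FPKM in sham and 0.753 ± 0.272 FPKM in VO (SD, n = 3 each), a ratio of 3.24, from 14 to 62 fragments per library. Its log2 fold change was -1.62 (standard error 0.27, 95% interval -2.26 to -0.98), with an unadjusted p of 0.000544 and an adjusted p of 0.283 by limma. Dropping any 1 library gave values between -1.86 and -1.46, and dropping both VO 1 and VO 3 gave -1.12. Tnni2 reached the mean of 1 FPKM only through the sham libraries.

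Tnnc2 (ENSMUSG00000017300, chromosome 2, 164777161 to 164779967), the fast skeletal troponin C that binds calcium, was at 0 FPKM in 5 libraries and at 0.076 FPKM in VO 3, which is 1 fragment. A count of 0 allows up to 3 fragments, or 0.207 to 0.241 FPKM in a library, for counting error only. Of the 800 exonic bases of Tnnc2, 592 are shared with Ube2c on the other strand, which was read at 0.330 to 3.50 FPKM. Whether the counting used the strand, and how it treated fragments on shared bases, was not given in the sources used here, so the value of Tnnc2 is uncertain.

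The light chain gene Mylpf (ENSMUSG00000030672, chromosome 7, 127208890 to 127214298) encodes the regulatory light chain of fast fibres. It was at 0.666, 0.328 and 0.463 FPKM in the sham libraries and at 0.104, 0.289 and 0.401 FPKM in the VO libraries, from 2 to 11 fragments each. The groups overlapped, with VO 3 above sham 2. The log2 fold change of Mylpf was -0.74 (standard error 0.45; adjusted p = 0.574 by limma) in the fit from 0.1 FPKM, and it was -0.37 without VO 1 and -1.02 without VO 3.

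The myosin heavy chain genes of fast fibres lie in a cluster on chromosome 11 and gave almost no fragments. Myh2 (ENSMUSG00000033196, 67171027 to 67197517), the motor of fast oxidative fibres, was at 0.0090, 0.041 and 0.026 FPKM in the sham libraries and at 0.023, 0.0086 and 0.077 FPKM in the VO libraries. The highest value, in VO 3, stood for 9 fragments. Myh4 (ENSMUSG00000057003, 67238029 to 67260446), the motor of fast glycolytic fibres, had 1 fragment in sham 1, 1 in VO 2 and 0 in the other 4 libraries. No fold is given for Myh2, Myh4 or Tnnc2. The myosin genes of the cluster have near-identical exons, so the split of fragments between them is uncertain.

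Atp2a1 (ENSMUSG00000030730, chromosome 7, 126445858 to 126463108) encodes SERCA1, the pump that returns calcium to the reticulum in fast fibres. Its level was 3.14, 2.17 and 2.93 FPKM in the sham libraries and 1.05, 2.26 and 1.17 FPKM in the VO libraries. VO 2 lay above sham 2, so the groups overlapped, while VO 1 and VO 3 lay below all sham libraries. The means were 2.75 ± 0.512 FPKM in sham and 1.49 ± 0.666 FPKM in VO (SD, n = 3 each), from 66 to 170 fragments per library. The log2 fold change of Atp2a1 was -0.90 (standard error 0.31, 95% interval -1.62 to -0.18), with an unadjusted p of 0.0216 and an adjusted p of 0.406 by limma. The unadjusted p was 0.0608 without VO 1, 0.0639 without VO 3, 0.0738 without sham 1 and 0.0646 without sham 3. Without both VO 1 and VO 3 the log2 fold change was -0.26. Of its 3477 exonic bases, 763 are shared with Rabep2 on the other strand, which was read at 1.57 to 1.92 FPKM.

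Casq1 (ENSMUSG00000007122, chromosome 1, 172209894 to 172219868), the skeletal calsequestrin that binds calcium inside the reticulum, had the highest level of the 10 genes. It was at 13.9, 14.6 and 10.2 FPKM in the sham libraries and at 4.46, 7.70 and 14.1 FPKM in the VO libraries. VO 1 and VO 2 lay below all sham libraries, and VO 3 lay between sham 1 and sham 2. The means were 12.9 ± 2.38 FPKM in sham and 8.77 ± 4.93 FPKM in VO (SD, n = 3 each), from 158 to 492 fragments per library. Its log2 fold change was -0.69 (standard error 0.39, 95% interval -1.60 to 0.22; limma's adjusted p = 0.465). The value rested on single libraries: it was -1.11 without VO 3, with an unadjusted p of 0.00604 and an adjusted p of 0.416 by limma (0.416 to 0.963 over all alternatives), and -0.29 without VO 1. VO 3 is the library with the Ucp1 fragments. Casq1 shares 156 of its 1951 exonic bases with the antisense gene Gm17224, which was at most at 0.348 FPKM.

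Actn3 (ENSMUSG00000006457, chromosome 19, 4861223 to 4877909) encodes the alpha-actinin that crosslinks actin at the Z-disc of fast fibres. It was at 0.689, 1.80 and 1.04 FPKM in the sham libraries and at 0.533, 0.509 and 0.756 FPKM in the VO libraries. VO 3 lay above sham 1, and sham 2 lay apart at the top. The log2 fold change of Actn3 was -0.79 (standard error 0.36, 95% interval -1.64 to 0.06; limma's adjusted p = 0.509) in the fit from 0.1 FPKM, and it was -0.46 without sham 2.

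**Figure D2:**
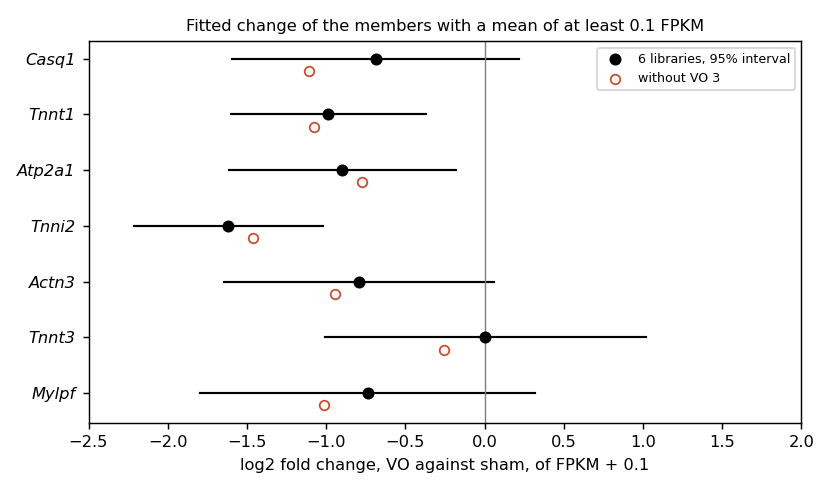
log2 fold change of FPKM + 0.1, VO against sham, for the 7 genes with a mean of at least 0.1 FPKM, with black points and 95% intervals from limma's fit to 6 libraries and open red circles for the fit without VO 3. The intervals of Tnni2, Tnnt1 and Atp2a1 lie below 0 before adjustment, and the largest shift on leaving out VO 3 is in Casq1, from -0.69 to -1.11.

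Of the 4 members tested among genes with a mean of at least 1 FPKM, 0 passed the adjusted threshold, against 0.00792% of all tested genes. An unadjusted p under 0.05 with a lower level in VO was found for 3 of them (Tnni2, Tnnt1 and Atp2a1) and for 8.08% of all tested genes, and 0 members had one with a higher level. The groups did not overlap, with VO lower, in 2 of the 4 (Tnnt1 and Tnni2) and in 12.9% of all tested genes. Among the 7 members tested from 0.1 FPKM, 0 passed the adjusted threshold, against 0.0157% of tested genes. In that fit 3 members had an unadjusted p under 0.05 and were lower in VO, against 6.11% of tested genes, and 2 did not overlap, against 9.75%. Since Tnni2 entered the first count through its sham level, these counts describe the members and carry no test of them as a group. The median log2 fold change was -0.94 over the 4 members, Tnni2 among them, and -0.01 over all 12627 genes. From 0.1 FPKM it was -0.79 over the 7 members and 0.02 over 19053 genes. These medians, like the counts, carry no test of the members as a group. With TPM in place of FPKM the median of the 12627 genes moved to 0.13, and the tested members other than Tnnt3 were lower in VO under every scaling tried.

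Each member was next set beside its cardiac counterpart, as the skeletal share of the pair's summed FPKM. A share within a library does not move with library scaling. The cardiac gene exceeded the skeletal one in every pair and library. The ratio of mean levels was lowest for calsequestrin, where Casq2 was 30.6 times Casq1, followed by 161 for Tnnt2 over Tnnt1, and was 13844 for Myl7 over Mylpf. The atrium thus read far more cardiac than skeletal transcript for each of these proteins, in both groups.

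The share of Tnni2 in the troponin I pair with Tnni3 was 0.153%, 0.169% and 0.190% in the sham libraries and 0.0870%, 0.0862% and 0.0499% in the VO libraries. The 2 groups did not overlap. The mean share was 0.171% ± 0.0182 in sham and 0.0744% ± 0.0212 in VO (SD, n = 3 each), with a two-sided exact permutation p of 0.1, the smallest that 3 against 3 can give, and 0.667 after adjustment over the 10 pairs. Tnni3 itself had 1445 ± 252.9 FPKM in sham and 1031 ± 274.7 FPKM in VO (SD, n = 3 each), and its log2 fold change was -0.51 ± 0.25 (standard error; adjusted p = 0.432 by limma).

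The share of Tnnt1 in the pair with Tnnt2, cardiac troponin T, was 0.823%, 0.708% and 0.541% in sham and 0.496%, 0.459% and 0.550% in VO. VO 3 lay just above sham 3, and the exact permutation p was 0.2 (n = 3 each). Atp2a1 made up 0.105% ± 0.0206 of the pair with Atp2a2, the cardiac pump SERCA2, in sham and 0.0657% ± 0.0212 in VO (SD, n = 3 each, exact permutation p = 0.2), with overlap through VO 2. The share of Casq1 in the pair with Casq2 ran from 2.59% to 3.99% in sham and from 1.80% in VO 1 to 4.87% in VO 3, and the exact permutation p was 0.8 (n = 3 each). The difference in mean share, VO minus sham, was -1.22 percentage points without VO 3 and 0.315 points without VO 1.

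Actn3 made up 0.327% ± 0.142 of the pair with Actn2 in sham and 0.228% ± 0.0509 in VO (SD, n = 3 each, exact permutation p = 0.4). Tnnt3 made up 0.142% ± 0.0630 of the pair with Tnnt2 in sham and 0.206% ± 0.0759 in VO (SD, n = 3 each, exact permutation p = 0.5). Mylpf stayed under 0.0107% of the pair with Myl7 in every library, and the groups overlapped. The adjusted exact p was 0.667 or more for all 10 pairs, and a design of 3 against 3 cannot reach 0.05 in this test.

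**Figure D3:**
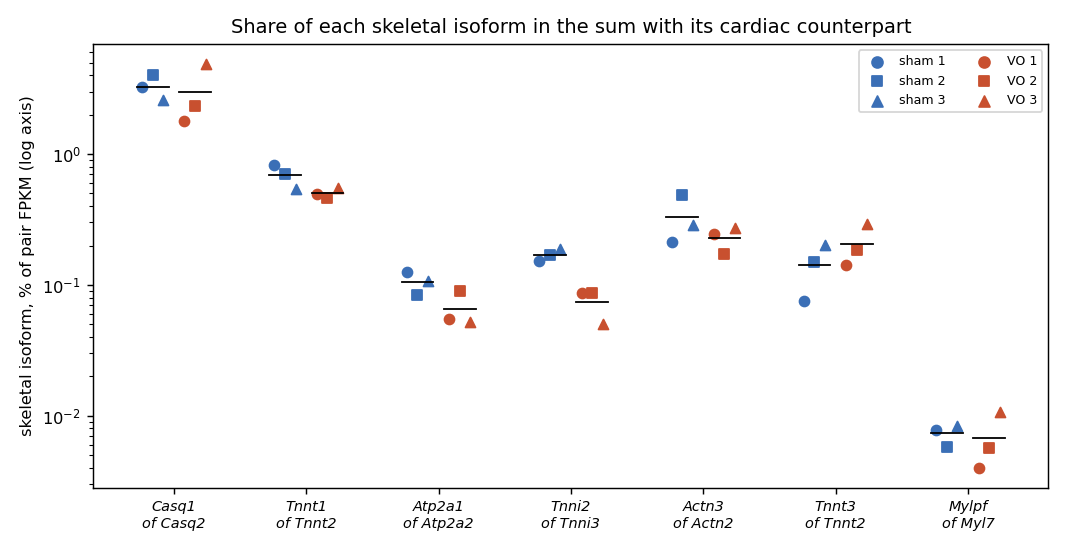
Skeletal isoform as a percentage of the summed FPKM of the pair (log axis) in each library, for the 7 members with a mean of at least 0.1 FPKM, sham in blue and VO in red, with symbols for libraries 1 to 3 and black bars for group means. Tnni2 is the pair without overlap, with sham between 0.153% and 0.190% and VO between 0.0499% and 0.0870%.

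The 8 cardiac counterparts (Tnnt2, Tnni3, Tnnc1, Myl7, Myh6, Atp2a2, Actn2 and Casq2) were lower in VO by the mean in all cases. Of all 12627 tested genes, 6503 had a lower mean on the log scale in VO. The median log2 fold change of the 8 was -0.48. An unadjusted p under 0.05 was found for 5 of the 8, against 8.08% of all tested genes lower at that level, and an adjusted one for 0. With quantile normalization 1 of the 8 turned higher and the median was -0.19. In that fit 0 had an unadjusted p under 0.05, against 834 of 12627 genes lower at that level. The count at an unadjusted p under 0.05 ran from 1 to 6 with any 1 library dropped: it was 2 without VO 1, with a median of -0.32, 6 without VO 2, and 1 without VO 3, with a median of -0.54. It was 3 without sham 2 and 1 without sham 1 or sham 3. Over all tested genes, those lower at that level ran from 573 of 12660 without sham 1 to 1209 of 12630 without VO 2. Without both VO 1 and VO 3 the median of the 8 was -0.23. With the replicate block the count of the 8 was 1, against 608 of 12627 genes. Tnnt2 had 441 ± 38.4 FPKM in sham and 299.7 ± 77.1 FPKM in VO, and Casq2 had 383 ± 30.7 and 282 ± 40.4 FPKM (SD, n = 3 each).

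**Figure D4:**
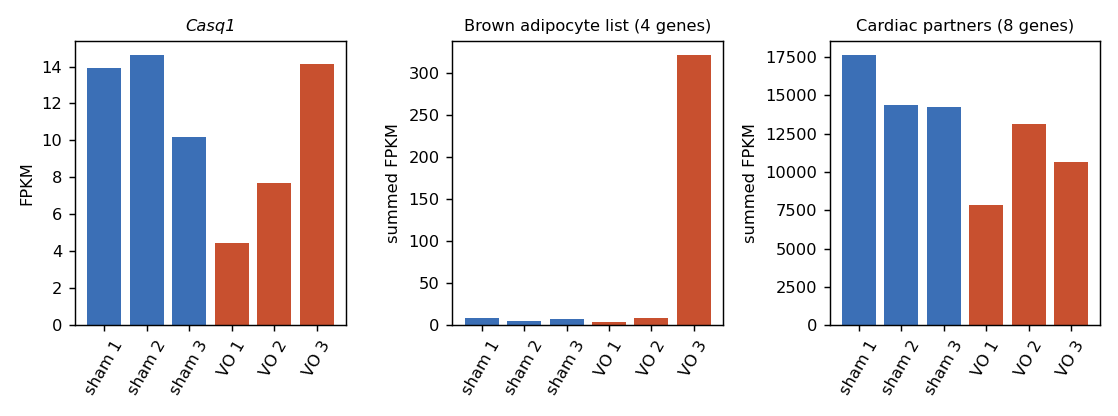
FPKM of Casq1 and summed FPKM of the 4 brown adipocyte markers and of the 8 cardiac counterparts in each library, with sham bars in blue and VO bars in red. VO 3 holds 14.1 FPKM of Casq1 and 321 FPKM of brown adipocyte markers, and VO 1 has the lowest Casq1 level, 4.46 FPKM, and the lowest cardiac sum, 7873 FPKM.

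Other genes of skeletal muscle gave a mixed picture of presence. A further 20 genes were listed as contractile, though Trim54, Klhl40 and Klhl41 among them encode no contractile protein. Of the 20, 9 had a mean of at least 1 FPKM, and 2 were at 0 in every library. Myh1, the heavy chain of another fast fibre type, was among the latter. The 5 highest were Myl1, the fast alkali light chain, at 92.7 to 229 FPKM, then Trim54 with a mean of 31.97 FPKM, Klhl41 with 23.3, Lmod3 with 22.4 and Tnni1, the slow skeletal troponin I, with 3.91 FPKM. All 9 tested genes had a lower mean on the log scale in VO, by a median of -0.40 (log2). So did 6503 of all 12627 tested genes. An unadjusted p under 0.05 was found for 2 of them, against 8.08% of all tested genes lower at that level. These 2, named after their values were seen, were Lmod3 and Mybpc2, the fast myosin-binding protein C. Lmod3 had 27.3 ± 7.17 FPKM in sham and 17.4 ± 2.87 in VO, and Mybpc2 had 1.68 ± 0.150 and 0.783 ± 0.151 (SD, n = 3 each). Myl1 had 186 ± 37.7 FPKM in sham and 134 ± 36.1 FPKM in VO (SD, n = 3 each), a log2 fold change of -0.49 (limma's adjusted p = 0.435), and Tnni1 had 4.27 ± 0.554 and 3.55 ± 1.32 FPKM. Mybpc2 and, of the others tested, Acta1 and Klhl40 reached a mean of 1 FPKM only through the sham libraries, while Neb (0.751 ± 0.0521 FPKM in sham and 0.801 ± 0.249 in VO) and Myot (0.899 ± 0.155 and 0.919 ± 0.528; SD, n = 3 each) had a higher mean in VO and stayed below the filter, so the count of lower genes describes the tested genes and supports nothing about the list. With TPM 1 of the 9 turned higher, and without both VO 1 and VO 3 the median was -0.11 over 10 tested genes, of which 7 were lower.

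Of 10 genes listed for calcium release and calcium handling in skeletal muscle, 3 passed 1 FPKM on average. These were the members Casq1 and Atp2a1 and the calcium buffer Pvalb, which store, pump or buffer calcium. Pvalb was at 6.11, 4.46 and 3.36 FPKM in sham and at 0, 4.18 and 2.10 FPKM in VO. The release channel Ryr1 was at most at 0.039 FPKM and the voltage sensor Cacna1s at most at 0.115 FPKM; both are named after their values were seen. The store protein and the pump of skeletal reticulum were therefore read in the atrium at over 1 FPKM, while the release channel was not.

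Of 7 enzymes of glycolytic muscle, 6 were tested and 5 had a lower level in VO, with Eno3, muscle enolase, and Ckm, muscle creatine kinase, at an unadjusted p under 0.05. Ckm had 162 ± 32.3 FPKM in sham and 85.2 ± 25.0 FPKM in VO (SD, n = 3 each), a log2 fold change of -0.95 (limma's adjusted p = 0.373). Gpd1, the sixth, was at 103.8 FPKM in VO 3 and at 6.53 to 11.4 FPKM in the others, and was the 1 gene of the list that was higher; without VO 3 all 6 were lower. The other 3 tested enzymes were Pgam2, Pfkm and Pygm, with group means that were lower in VO and an unadjusted p over 0.05. The median log2 fold change of the 6 enzymes was -0.52. Without VO 1 it was -0.27, with 1 enzyme at an unadjusted p under 0.05. Without VO 2 it was -0.65, with 5, and without VO 3 it was -0.60, with 2. Of 8 neuromuscular junction genes, 3 were tested (Rapsn, Dok7 and Chrnb1) and all 3 had a lower level in VO, with Rapsn, which clusters acetylcholine receptors, and Dok7, which activates their organiser MuSK, at an unadjusted p under 0.05. That count was 1 without VO 1, 3 without VO 2 and 1 without VO 3. Of 8 regulators of fast fibre fate, 3 were tested (Nfix, Eya1 and Sox6), and their median log2 fold change was 0.02 with 0 at an unadjusted p under 0.05. None of the tested genes in these lists passed the adjusted threshold. Of all 12627 tested genes, 6503 had a lower mean on the log scale in VO, and 8.08% were lower with an unadjusted p under 0.05. The genes lower at that level were 617 of 12542 without VO 1, 1209 of 12630 without VO 2 and 974 of 12603 without VO 3.

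Markers of other tissues were read in the same libraries. The 4 ventricular markers summed to 121 to 308 FPKM in sham and to 92.7 to 143 FPKM in VO, with 3 of the 4 tested. Myl3 had 180 ± 64.2 FPKM in sham and 102 ± 18.5 FPKM in VO (SD, n = 3 each). Its log2 difference was -0.77, with an unadjusted p of 0.0273 and an adjusted p of 0.408 by limma. In the fits that left out VO 1, VO 2, sham 1 or sham 3 in turn, 0 of the 3 had an unadjusted p under 0.05. Myl2, the ventricular light chain, ranged from 1.54 to 60.4 FPKM with overlap between the groups, and Hey2 from 1.34 to 1.99 FPKM. The 5 smooth muscle markers summed to 178 to 239 FPKM in sham and to 82.9 to 137 FPKM in VO, and most of that sum was Acta2, with 164 ± 33.3 FPKM in sham and 83.9 ± 25.8 FPKM in VO (SD, n = 3 each). Acta2 was the 1 gene of the 4 tested with an unadjusted p under 0.05, against 8.08% of all tested genes lower at that level. Myh11, the smooth muscle heavy chain, had 4.44 ± 0.326 and 4.73 ± 1.86 FPKM, Smtn 32.4 ± 1.97 and 28.7 ± 3.17 FPKM and Cnn1 2.12 ± 0.235 and 1.11 ± 0.684 FPKM (sham and VO, SD, n = 3 each). The part of Acta2 and Myl3 levels in the members' values was not tested. The 12 thymus markers summed to 0.597 to 1.25 FPKM in sham and to 0.330 to 2.62 FPKM in VO.

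The genes whose pattern over the 6 libraries was most like that of an expressed member were found by Pearson's r on log2(FPKM + 0.1) among the 12627 tested genes. For Tnnt1 these were P4ha2, Lztr1 and Pih1d1 (r = 0.9987, 0.9960 and 0.9956). For Tnni2 they were Mybpc3, cardiac myosin-binding protein C, with r = 0.9954, Gm11899 with r = 0.9953 and the pseudogene Mylf-ps with r = 0.9949. For Atp2a1 they were Ift43, Entpd6 and Kbtbd12 (r = 0.9956, 0.9941 and 0.9923), and for Casq1 Ddt, Oxnad1 and Hspa4 (r = 0.9952, 0.9932 and 0.9897). With 6 libraries that share their groups, high values are common: 1003 genes had r over 0.9 with Tnnt1, 344 with Tnni2, 446 with Atp2a1 and 298 with Casq1. Mybpc3 was highest in sham 1, at 219 FPKM, and lowest in VO 1, at 129 FPKM.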

How the data were processed

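RNA of mouse right atria at P21, 3 sham and 3 VO libraries grouped by their sample titles, was sequenced. The authors aligned paired-end reads with HISAT2 2.0.5, counted them per gene with featureCounts 1.5.0-p3 and deposited FPKM values, computed from gene length and counts; the kit's strand handling and the annotation release were not given in the sources used here. The submitters' processing notes name GRCm38, and 9 of the 10 members had the gene bounds of GENCODE M21. The table held 54093 complete genes, and 1 incomplete last line was left out.

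FPKM times gene length was a whole multiple of 1 step per library (tolerance 0.001) for 100% of values above 0, which gave back fragments. Median-of-ratios factors of the deposited values were 1 in each library, so the deposited values already had this scaling and the step changed nothing. The authors' DESeq2 test was not repeated, and the recovered fragments were used in an alternative fit with voom. limma 3.58.1 in R 4.3.3 (lmFit, eBayes with trend) was fitted on log2(FPKM + 0.1), two-sided, with Benjamini-Hochberg adjustment and a threshold of 0.05, for genes with a mean of at least 1 FPKM and, for lower members, at least 0.1 FPKM. The script was tested on simulated data with a fixed spread that was not estimated from these libraries, so that test gives no measure of power here. Pair shares were compared by exact permutation of libraries. The 95% intervals are limma's and rest on the spread between libraries, while the floor of 3 fragments covers counting error only.

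The text names all members, their cardiac counterparts, of each list the tested genes (at most the 5 highest by mean), and the 3 genes most like each expressed member. The members and lists were chosen with earlier results of these data known. Alternatives covered pseudocount, filter, scaling (TPM, quantile), variance model, voom on fragments, the replicate block and each library left out; leaving out VO 1 with VO 3 was chosen after seeing the data.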

Additional observations from a re-analysis of the deposited data

How the results depend on the processing

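No member had an adjusted p under 0.05 by limma in any of the settings tried. The number with an unadjusted p under 0.05 was 3 of 4 tested from a mean of 1 FPKM, with 2 or 3 under the alternatives. Of all 12627 tested genes, 1020 were lower in VO at that level, with 608 under the replicate block. Without VO 2 it was 1209 of 12630. Of the 7 members tested from 0.1 FPKM, 3 had an unadjusted p under 0.05, against 1165 of 19053 genes lower at that level. With quantile normalization 4 members had one (Actn3 added, unadjusted p = 0.0323 by limma), against 1039 genes. The other fits that kept more than 1 library per group gave 2 or 3 members. Over all alternatives the log2 fold change ran from -1.86 to -0.98 for Tnni2, from -1.17 to -0.70 for Tnnt1, from -1.22 to -0.26 for Atp2a1, from -1.11 to -0.29 for Casq1, from -1.09 to -0.42 for Actn3 and from -1.02 to -0.23 for Mylpf. Tnnt3 turned negative with a pseudocount of 0.01 (-0.0019), quantile normalization (-0.18) and voom (-0.036), and ran from -0.27 to 0.37 over the fits that left out 1 library. Over all tested genes, 1 passed the adjusted threshold, against 2 with a pseudocount of 1, 3 without the variance trend, 3 from a mean of 0.1 FPKM, 0 with quantile normalization, 0 with robust variance, 0 in each fit with 1 library left out and 0 without both VO 1 and VO 3; the causes were not tested. With TPM, genes with an unadjusted p under 0.05 split into 486 lower and 1085 higher, against 1020 lower and 491 higher.

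Replicate numbers are shared between the groups but are not known to pair animals: same-numbered libraries had correlations of deviations of -0.108, 0.0112 and -0.0292. With the replicate number as a block, 0 genes passed the adjusted threshold over all tested genes, and 2 of the 4 members in place of 3 had an unadjusted p under 0.05, since that of Atp2a1 was 0.0513. The count of expressed members was 4 from the mean, 3 when every library had to reach 1 FPKM, 5 from the sham mean and 6 with TPM. Without division by gene length the difference in share, VO minus sham, was -0.0541 in place of -0.19 percentage points for Tnnt1 and -0.0699 in place of -0.096 for Tnni2. For the 6 members with a mean below 1 FPKM, from 1 to 258 fragments in all libraries together limit the precision.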
